A study of Mus musculus with 12 samples.

Results

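Markers of cortical excitatory neurons and of their layers were followed across the medial prefrontal cortex libraries of a morphine conditioned place preference study. The set held 32 genes, taken by symbol from a table of 55401 gene IDs. They were 8 genes classed as pan-excitatory, 7 markers of the upper layers, 8 of layer 5 and 9 of layer 6. The pan-excitatory class includes Tbr1, a factor of deep-layer neurons, and Slc17a6, a transporter typical of thalamic neurons. Each symbol matched 1 gene ID, and all 32 genes passed the filter on low counts, so none was left out of the tests. The members were named for the cells they mark, but they were chosen with earlier results of these data known.

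Bulk RNA of male mice was sequenced after 2 weeks of extinction, the phase in which an animal loses its preference for the chamber once paired with the drug. The labels give 3 groups of 4 libraries: AAV-Scramble-Saline, a control virus with saline; AAV-Scramble-Morphine, the same virus with morphine; and AAV-5-HT6Rkd-Morphine, a virus against the serotonin receptor 5-HT6R with morphine. All animals thus carried an adeno-associated virus (AAV) and all went through extinction, and knockdown with saline was not among the groups. Strain, age, the promoter of the virus and whether libraries came from separate animals are not stated in the labels used here. P-values therefore measure the spread between these libraries, which may be technical in part.

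Excitatory neurons of the cortex release glutamate, which they load into vesicles with transporters of the Slc17 family, and they arise from progenitors that express Emx1 and then factors such as Neurod2, Neurod6 and Tbr1. They settle in layers that send their axons to different targets. Upper-layer neurons project mainly within the cortex, many layer 5 neurons project to the brainstem, spinal cord and striatum, and many layer 6 neurons project to the thalamus. Transcription factors such as Cux2, Fezf2, Bcl11b and Foxp2 are widely used to tell these layers apart. Several members are not exclusive to the cortex: Bcl11b, Foxp1, Foxp2 and Pcp4 are also expressed in striatal projection neurons, and Calb1 also in interneurons.

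Total counts ran from 41483220 to 65739423 per library. Counts from CT010467.1, a locus of ribosomal RNA, made up a share that ran from 3.58 to 5.63% with scramble and saline, from 2.38 to 3.04% with scramble and morphine, and from 4.57 to 9.38% with the knockdown. Htr6, the gene of 5-HT6R, ranged from 4.35 to 7.98, from 4.82 to 5.58 and from 3.82 to 5.46 CPM (CPM: counts scaled to a fixed library size, here with TMM factors) in the same order of groups, so it overlapped between all 3 groups and does not check the label of the knockdown. Across the genes tested, edgeR's quasi-likelihood test called 0, 0 and 3 of 21958 genes for morphine against saline, knockdown against scramble with morphine, and knockdown (morphine) against scramble saline. These are 0, 0 and 0.0137% of the genes tested. As a measure of distance, the chi-square per gene between 2 libraries put saline replicate 4 nearer to knockdown replicate 3 (31.2) than to the other saline libraries (40.7 to 56.3). It put knockdown replicate 5 nearer to saline replicate 5 (22.9) than to the other knockdown libraries (53.2 to 96.0). The chi-square used raw counts with CT010467.1 included, so depth and the share of that locus enter it.

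The labelled tissue was checked against markers of its cells. Slc17a7, the vesicular glutamate transporter VGLUT1 of cortical neurons, lay between 1565 and 2007 CPM in all 12 libraries. Markers of neighbouring regions were present at different levels. Of the striatal markers, Drd2 lay between 0.591 and 1.80 CPM, Adora2a between 1.85 and 4.53, Drd1 between 6.14 and 17.4 and Ppp1r1b between 45.2 and 91.3, the last pair being also expressed in deep cortical neurons. Of the thalamic and hippocampal markers, Tcf7l2 lay between 3.52 and 5.59 CPM, Prox1 between 10.1 and 16.1 and Prkcd between 15.4 and 25.8. Of the olfactory bulb markers, Eomes and Tbx21 reached at most 0.522 and 0.543 CPM and Cdhr1 6.36.

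Levels were compared between genes as CPM per kilobase of annotated exon, averaged over the 12 libraries. Nrgn, which encodes the calmodulin-binding synaptic protein neurogranin, was the most abundant member at 670.4, followed by Slc17a7 at 336 and Pcp4, another small calmodulin regulator, at 116. Neurod6, Rprm, Crym, Tbr1, Wfs1 and Neurod2 came next, between 39.1 and 25.4 CPM per kilobase. The lowest members were Slc17a6 (VGLUT2, the transporter typical of thalamic neurons) at 1.39, Nxph4 at 0.975 and Foxp2 at 0.728. Of the 31 pairs of neighbours in this order, 17 overlapped in mean ± SD in all 3 groups. For example, Tbr1 and Wfs1 had 28.9 and 28.8, and Rasgrf2 and Calb1 15.7 and 15.7. The steps from Nrgn to Slc17a7, from Slc17a7 to Pcp4 and from Pcp4 to Neurod6 left no overlap of mean ± SD in any group.

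**Figure D1:**
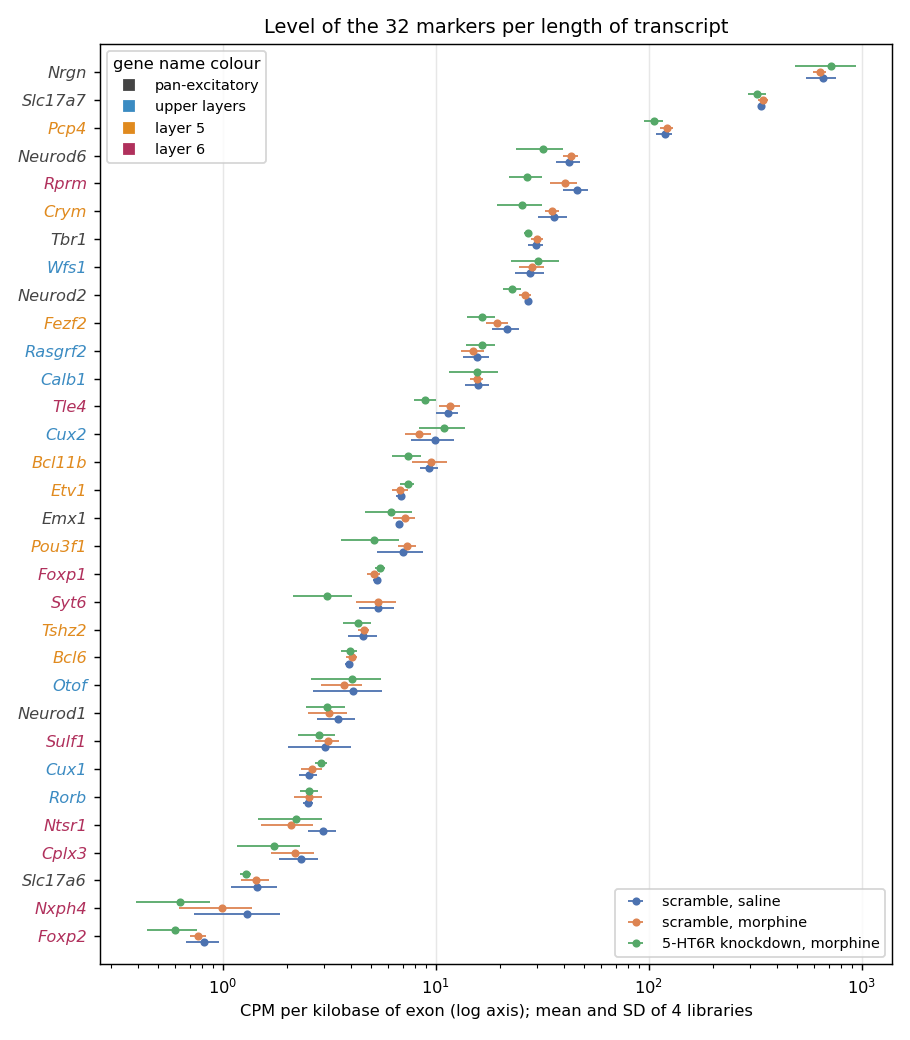
Level of each of the 32 markers in CPM per kilobase of annotated exon on a log axis, as mean and SD of the 4 libraries of each group, with gene names coloured by class. Nrgn, Slc17a7 and Pcp4 stand apart at the top, and the green knockdown points of Rprm, Crym, Tle4 and Syt6 lie to the left of the points of both scramble groups.

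Among pan-excitatory genes, Slc17a7 had 1826, 1861, 1824 and 1793 CPM in saline replicates 2, 3, 4 and 5, 1761, 1871, 2007 and 1822 in scramble morphine replicates 1, 3, 4 and 5, and 1676, 1961, 1778 and 1565 in knockdown replicates 1, 2, 3 and 5. Its means ± SD (n = 4) were 1826 ± 27.6, 1865 ± 105 and 1745 ± 168. Values of other genes below follow the same order of libraries, each with mean ± SD over the 4. The 3 groups overlapped for Slc17a7, and its lowest value was in knockdown replicate 5. Nrgn had 885, 982, 1152 and 794 CPM with saline (mean 953 ± 153), 835, 935, 939.7 and 997 with scramble and morphine (mean 927 ± 67.5), and 961, 1304, 1299.7 and 606 with the knockdown (mean 1043 ± 332). Nrgn thus held both its highest and its lowest library within the knockdown group. The group means ± SD (n = 4) of the remaining pan-excitatory genes, for saline, scramble morphine and knockdown in turn, were as follows. Tbr1, a T-box factor of deep-layer neurons, had 163 ± 13.4, 165 ± 11.1 and 149 ± 6.51 CPM. Emx1, a homeobox factor of the dorsal telencephalon, had 14.8 ± 0.552, 15.7 ± 1.85 and 13.5 ± 3.36. Neurod1, a basic helix-loop-helix (bHLH) factor, had 9.52 ± 1.92, 8.64 ± 1.80 and 8.48 ± 1.76, and Slc17a6 had 7.82 ± 1.92, 7.74 ± 1.16 and 6.93 ± 0.395.

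Upper-layer markers had overlapping groups. Cux2, a homeobox factor of layers 2 to 4, had 101, 128, 99.7 and 72.6 CPM with saline (mean 100.2 ± 22.6), 93.3, 68.6, 81.2 and 93.8 with scramble and morphine (mean 84.2 ± 11.9), and 96.4, 145, 118 and 83.8 with the knockdown (mean 111 ± 27.0). Wfs1, which encodes the endoplasmic reticulum protein wolframin, had 110.1, 123, 105 and 84.6 CPM with saline (mean 106 ± 16.1), 117, 88.2, 119.8 and 105 with scramble and morphine (mean 107 ± 14.3), and 102, 157, 99.0 and 99.6 with the knockdown (mean 115 ± 28.6). For both genes knockdown replicate 2 was the highest of all 12 libraries and the groups overlapped. Otof, which encodes the vesicle protein otoferlin, had means ± SD (n = 4) of 32.5 ± 11.6, 29.3 ± 6.32 and 32.1 ± 11.6 CPM and the widest relative spread of the upper-layer genes, with a within-group coefficient of variation of 32.4%. Rasgrf2, a Ras guanine nucleotide exchange factor, had 144 ± 19.5, 139 ± 16.6 and 152 ± 23.8, and Calb1, the calcium-binding protein calbindin, 76.4 ± 9.78, 75.9 ± 5.30 and 75.6 ± 19.3. Rorb, a nuclear receptor of layer 4, had 28.0 ± 1.45, 28.3 ± 4.34 and 28.3 ± 2.67, and Cux1, the relative of Cux2, 50.8 ± 4.85, 52.5 ± 5.93 and 58.2 ± 3.82.

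Layer 5 markers included both steady and variable genes. Etv1, an ETS factor of layer 5, had means ± SD (n = 4) of 91.4 ± 4.65, 90.9 ± 7.97 and 98.3 ± 7.31 CPM, Bcl6, a transcriptional repressor, 26.4 ± 1.18, 27.1 ± 1.71 and 26.4 ± 2.19, and Tshz2, a zinc finger factor of near-projecting neurons, 35.7 ± 5.45, 35.8 ± 2.31 and 33.6 ± 5.01. Of the annotated exonic bases of Tshz2, 65.2% are overlapped by Gm26883 on the opposite strand, and 23.7% of those of Pcp4 by Igsf5 on the same strand. Whether counting used the strand is not stated in the labels used here, so reads of these pairs may not be told apart. Among layer 6 markers, Foxp1, which also spans upper layers, had 72.9 ± 2.79, 70.7 ± 4.90 and 75.6 ± 3.90 CPM and the lowest coefficient of variation of all members, 5.42%. Cplx3, a complexin of subplate-derived neurons, had 6.89 ± 1.44, 6.44 ± 1.48 and 5.13 ± 1.69, and Sulf1, a heparan sulfate sulfatase, 34.1 ± 11.3, 35.3 ± 4.49 and 31.9 ± 6.32. Nxph4, a neurexophilin of layer 6b, had the highest coefficient of variation, 42.5%. The median coefficient of variation within groups was 22.5% for layer 6 markers, 13.3% for layer 5, 16.9% for upper layers and 15.2% for pan-excitatory genes. It was 16.1% over all genes tested and 11.4% over genes of at least 1 CPM.

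The first comparison set morphine against saline under the scramble virus, and the markers lay on both sides of 0. Of the 32 members, 18 lay below 0 in log2 fold change and 14 above (56.2% below, against 50.5% of all genes tested below and 49.5% above), with a median of -0.01 beside -0.00123 over all genes. By class, 7 of 9 layer 6 markers lay below 0, at a median of -0.08, and 4 of 7 upper-layer markers, at -0.01. For layer 5 it was 3 of 8, at 0.01, and for pan-excitatory genes 4 of 8, at 0.00199. With the replicate number as a block, 9 of 9 layer 6 and 1 of 7 upper-layer markers lay below 0. Without saline replicate 5, 5 of 9 layer 6 markers did. No member was called by the edgeR quasi-likelihood test at an adjusted p under 0.05, and DESeq2 and limma voom called 0 members too. At an unadjusted p under 0.05 stood 1 member, or 3.1%, lower with morphine, against 3.48% of all genes, 1.82% lower and 1.67% higher. That member was Ntsr1, the neurotensin receptor of layer 6 corticothalamic neurons. It had 10.7, 10.2, 14.0 and 11.4 CPM with saline and 8.61, 6.94, 11.2 and 6.05 with morphine, with means ± SD of 11.6 ± 1.71, 8.20 ± 2.26 and 8.63 ± 2.86 (knockdown last; n = 4), and the highest morphine library lay among the saline libraries. On the log2 scale it stood at -0.50 (SE 0.22, edgeR adjusted p = 0.999), and its unadjusted p was above 0.05 without saline replicate 4 or 5, or without scramble morphine replicate 1, 3 or 5. With the CT010467.1 share as a covariate Ntsr1 stood at -0.22. That share was at least 3.58% with saline and at most 3.04% with scramble and morphine. It did not overlap, so this fit cannot tell it apart from the group. The next smallest p belonged to Rprm, at -0.19 (SE 0.14, edgeR adjusted p = 0.999), and Cux2, at -0.25 (SE 0.19, edgeR adjusted p = 0.999). No member had groups without overlap, as 3.32% of all genes did, 1.77% with morphine lower and 1.55% with it higher. The 31 members other than Ntsr1 ran from -0.38 to 0.09. For Slc17a7 the fold was 1.02 (95% interval 0.922 to 1.13).

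The second comparison set the virus against 5-HT6R beside the scramble virus, with morphine in both groups, and here 14 of 17 markers of layers 5 and 6 lay below 0 with the knockdown, beside 1 of 7 upper-layer markers. No member passed the edgeR quasi-likelihood test over all genes, limma voom also called 0, and DESeq2 called 2, Rprm and Syt6, both lower. At an unadjusted p under 0.05 stood 9 of 32 members (28.1%), all lower, where 12% of all genes tested had such a p, 6.17% lower and 5.87% higher. Of the 9, 3 were layer 6 markers, 4 layer 5 markers and 2 pan-excitatory genes. The median log2 fold change was -0.36 for layer 6 (7 of 9 below 0), -0.22 for layer 5 (7 of 8), -0.15 for pan-excitatory genes (7 of 8) and 0.13 for upper layers (1 of 7), beside 0.00397 for all genes, of which 49.3% lay below 0. Without knockdown replicate 3 the layer 6 median was -0.23. Without knockdown replicate 2 the upper-layer median was -0.05, with 4 of 7 below 0. In bulk RNA, fewer cells of a type and less RNA per cell cannot be told apart.

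Rprm, which encodes the cell cycle protein reprimo and marks layer 6 neurons, had the smallest p of the members (ENSMUSG00000075334, mm10 chromosome 2, 54084093 to 54085552, minus strand). Its level was 66.0, 54.7, 74.4 and 73.5 CPM with saline (mean 67.1 ± 9.13), 58.7, 60.1, 68.6 and 48.2 with scramble and morphine (mean 58.9 ± 8.40), and 47.0, 39.7, 30.0 and 40.7 with the knockdown (mean 39.4 ± 7.01). All 4 knockdown libraries lay below all 8 scramble libraries. On the log2 scale Rprm stood at -0.58 (SE 0.14, edgeR adjusted p = 0.254), a fold of 0.668 (95% interval 0.544 to 0.821). DESeq2 gave an adjusted p of 0.0172, and over the 23 alternatives its adjusted p ran up to 0.941.

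Tle4, a Groucho-family corepressor of corticothalamic neurons (chromosome 19, 14448150 to 14598051, minus strand), had 60.2, 57.6, 66.6 and 75.4 CPM with saline (mean 64.9 ± 7.92), 68.7, 65.7, 75.8 and 57.7 with scramble and morphine (mean 67.0 ± 7.48), and 54.8, 43.0, 49.8 and 56.4 with the knockdown (mean 51.0 ± 6.03). Here too all knockdown libraries lay below all scramble libraries, by a narrow margin of 56.4 against 57.6 CPM. On the log2 scale its difference was -0.39 (SE 0.10, edgeR adjusted p = 0.264). Syt6, a synaptotagmin of layer 6 neurons (chromosome 3, 103575231 to 103645569, plus strand), had 26.9, 28.6, 29.5 and 40.1 CPM with saline (mean 31.3 ± 5.94), 36.0, 29.3, 37.1 and 22.8 with scramble and morphine (mean 31.3 ± 6.64), and 17.9, 14.5, 13.8 and 25.8 with the knockdown (mean 18.0 ± 5.51). Knockdown replicate 5 stood above scramble morphine replicate 5, and the other 3 knockdown libraries lay below every scramble library. On the log2 scale Syt6 stood at -0.79 (SE 0.21, edgeR adjusted p = 0.271). Without knockdown replicate 5 edgeR called Syt6 at -1.02 (adjusted p = 0.0264), and DESeq2 called it on all libraries (adjusted p = 0.02), while the highest adjusted p over the alternatives was 0.941.

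Foxp2, a forkhead factor of layer 6, had 12.4, 10.7, 16.1 and 14.2 CPM with saline (mean 13.3 ± 2.34), 12.9, 12.9, 13.6 and 11.0 with scramble and morphine (mean 12.6 ± 1.13), and 10.3, 8.65, 7.14 and 13.1 with the knockdown (mean 9.80 ± 2.55). Knockdown replicate 5 lay within the scramble range, and the other 3 lay below all scramble libraries. Ntsr1 and Foxp1 were the layer 6 markers above 0, at 0.08 and 0.10. In Ntsr1 the knockdown libraries had 12.8, 8.33, 6.42 and 7.02 CPM and overlapped both scramble groups. Nxph4 had 1.32, 1.54, 2.43 and 3.40 CPM with saline (mean 2.17 ± 0.947), 2.12, 1.21, 2.29 and 1.06 with scramble and morphine (mean 1.67 ± 0.624), and 1.25, 1.47, 0.545 and 0.958 with the knockdown (mean 1.06 ± 0.399), low levels with overlapping groups.

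**Figure D2:**
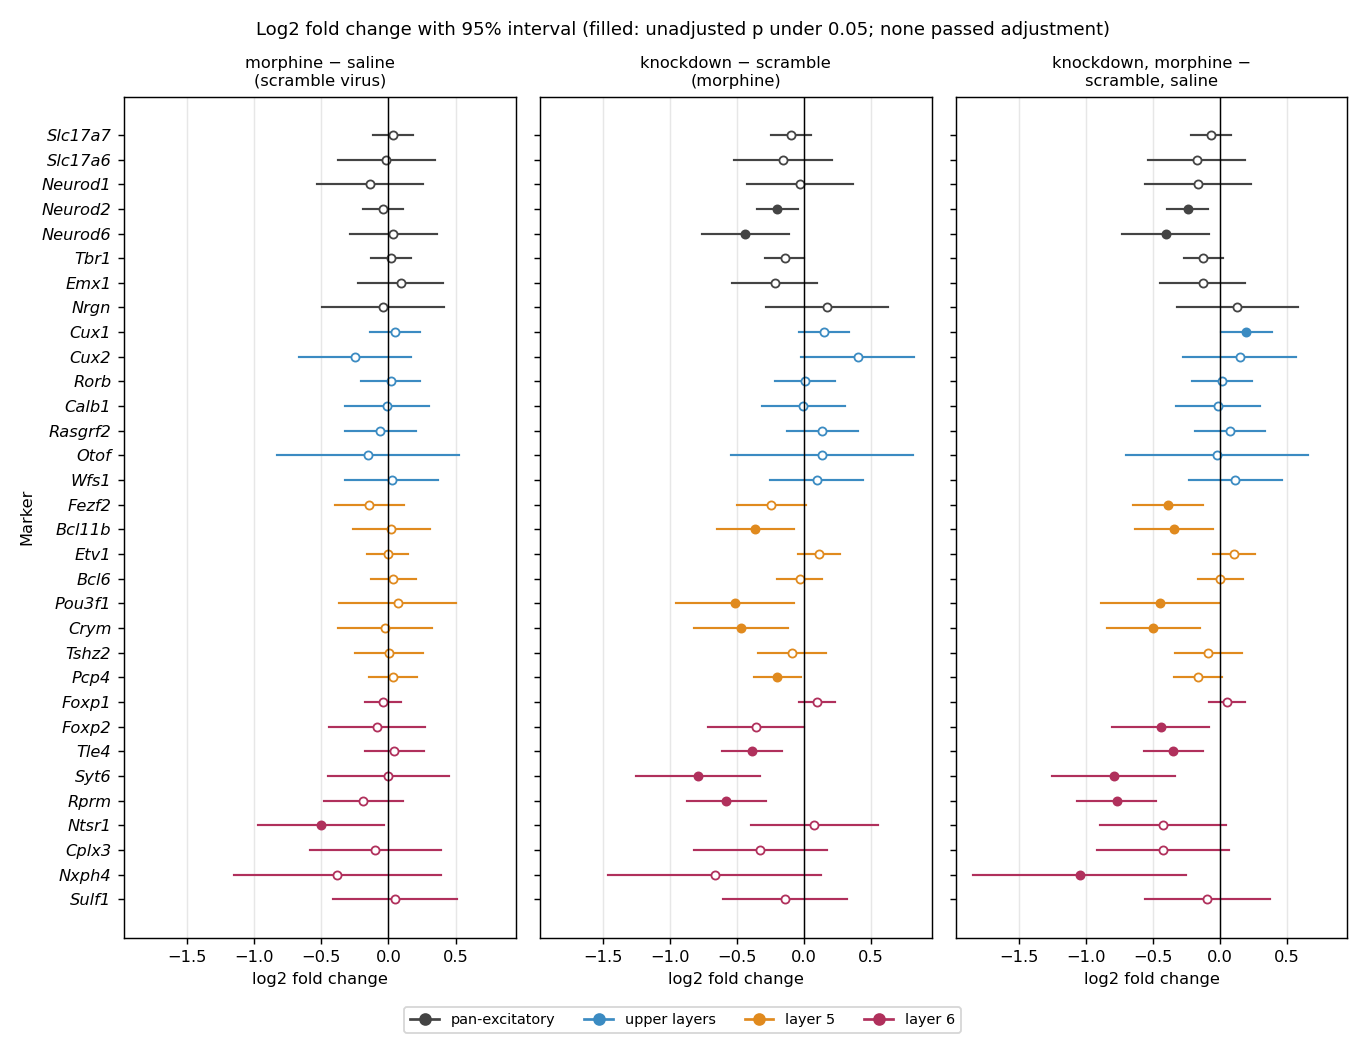
Log2 fold change of each marker in the 3 comparisons with its 95% interval from the edgeR fit, coloured by class, with filled points at an unadjusted p under 0.05. In the middle panel the 9 filled points are all below 0 and belong to layer 6, layer 5 and pan-excitatory genes, while 6 of 7 upper-layer points lie above 0.

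Layer 5 markers in this comparison split by gene. Crym, which encodes the thyroid hormone-binding protein mu-crystallin, had 143, 118, 97.5 and 129.6 CPM with saline (mean 122 ± 19.1), 117, 122, 131 and 109 with scramble and morphine (mean 119.7 ± 9.18), and 85.4, 99.0, 57.6 and 104 with the knockdown (mean 86.5 ± 20.7). The knockdown libraries lay below those of scramble and morphine, and knockdown replicates 2 and 5 lay within the saline range. On the log2 scale Crym stood at -0.47 (SE 0.16, edgeR adjusted p = 0.327). Bcl11b, which encodes the factor CTIP2 of layer 5 neurons that project out of the cortex, had 79.5, 74.3, 66.5 and 83.5 CPM with saline (mean 76.0 ± 7.32), 68.3, 78.0, 97.2 and 65.3 with scramble and morphine (mean 77.2 ± 14.4), and 63.9, 64.0, 45.7 and 66.0 with the knockdown (mean 59.9 ± 9.49). Its lowest library was knockdown replicate 3, and knockdown replicate 5 lay above the lowest scramble morphine library at 66.0 against 65.3. Pou3f1, a POU factor, had 30.3, 34.0, 18.8 and 25.1 CPM with saline (mean 27.1 ± 6.59), 24.9, 29.2, 27.8 and 31.6 with scramble and morphine (mean 28.4 ± 2.80), and 15.1, 28.8, 18.2 and 17.4 with the knockdown (mean 19.9 ± 6.08). The knockdown replicate 2 value of Pou3f1 lay among the scramble values, and the other 3 lay below all of them.

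Bcl11b stood at -0.37 (SE 0.13, edgeR adjusted p = 0.339) on the log2 scale and Pou3f1 at -0.52 (SE 0.20, edgeR adjusted p = 0.361). Pcp4 had 116, 109.8, 131 and 131 CPM with saline (mean 122 ± 10.9), 115, 136, 122 and 127 with scramble and morphine (mean 125 ± 8.60), and 93.9, 108, 120.3 and 113 with the knockdown (mean 109 ± 11.2) and a log2 fold change of -0.20 (SE 0.08, edgeR adjusted p = 0.369). When the CT010467.1 share was added as a covariate, Pcp4 stood at 0.00222 and Bcl11b at -0.66. That share did not overlap between knockdown and scramble morphine libraries, so this fit cannot tell it apart from the group. Pcp4 stayed below 0 in 22 of the 23 alternatives. Without scramble morphine replicate 4, Bcl11b stood at -0.24. Fezf2, a zinc finger factor of layer 5 projection neurons, had 75.0, 71.6, 54.9 and 61.0 CPM with saline (mean 65.6 ± 9.33), 54.3, 61.0, 68.8 and 53.7 with scramble and morphine (mean 59.5 ± 7.05), and 58.2, 53.9, 41.0 and 47.5 with the knockdown (mean 50.2 ± 7.53), and its groups overlapped.

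Both pan-excitatory genes at an unadjusted p under 0.05 were bHLH factors. Neurod6, which stays on in mature cortical pyramidal neurons (chromosome 6, 55677822 to 55681263, minus strand), had 99.0, 89.0, 74.9 and 99.4 CPM with saline (mean 90.6 ± 11.5), 86.4, 91.6, 104 and 90.0 with scramble and morphine (mean 92.9 ± 7.51), and 56.7, 79.7, 51.2 and 86.3 with the knockdown (mean 68.5 ± 17.1). The highest knockdown library, at 86.3 CPM, lay just under the lowest scramble morphine library at 86.4, and inside the saline range. On the log2 scale Neurod6 stood at -0.44 (SE 0.15, edgeR adjusted p = 0.324). Neurod2, a factor with a like role in cortical projection neurons, had 82.0, 85.8, 86.7 and 86.0 CPM with saline (mean 85.1 ± 2.12), 80.3, 82.2, 90.1 and 78.1 with scramble and morphine (mean 82.7 ± 5.22), and 76.1, 75.5, 74.5 and 61.8 with the knockdown (mean 72.0 ± 6.79), and all knockdown libraries lay below all scramble libraries. Its log2 fold change was smaller, at -0.20 (SE 0.07, edgeR adjusted p = 0.327). For Slc17a7 the fold was 0.935 (95% interval 0.844 to 1.04), and its groups overlapped.

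**Figure D3:**
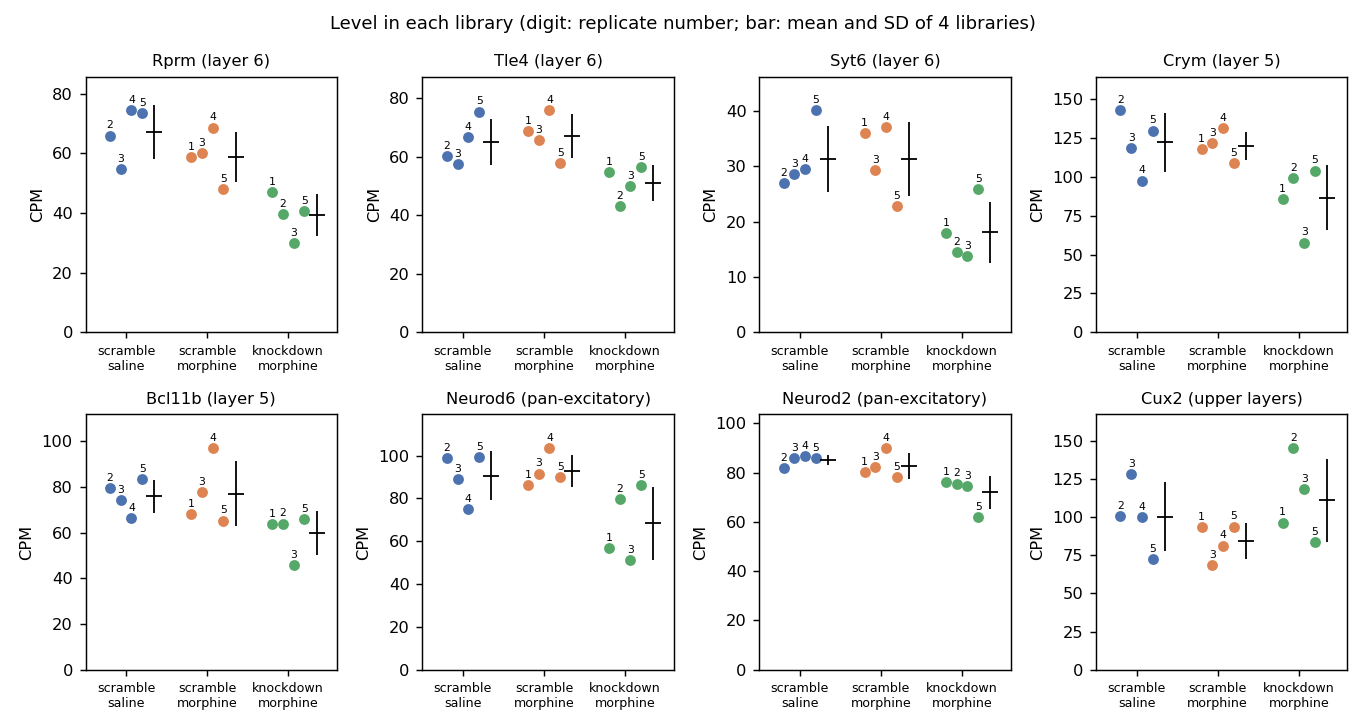
Level in CPM of 8 markers in each of the 12 libraries, with replicate numbers beside the points and black marks for mean and SD of 4 libraries. Rprm, Tle4 and Neurod2 in the knockdown libraries lie below both scramble groups, while Cux2 overlaps and is highest in knockdown replicate 2.

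In all, knockdown and scramble morphine libraries did not overlap for 6 of the 32 members, Neurod2, Neurod6, Tbr1, Crym, Tle4 and Rprm, all with the knockdown lower. The same held for 5.85% of all genes tested, 3.26% with the knockdown lower and 2.59% with it higher. The 23 members with a larger p ran from -0.67 to 0.40, with 13 of them below 0 and a median of -0.03.

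The upstream sequences of Rprm, Tle4, Syt6 and Neurod6 are shown because these 4 members had the smallest p in the second comparison. They are taken from RefSeq on GRCm38.p6, upstream of the most 5′ start listed for each gene, run 5′ to 3′ on the strand of the gene and end before the first annotated exon. Capitals mark matches to 4 motifs searched on both strands, each bound by a protein family with members among these markers: CAGATG (an E-box of the Neurod type), AGGTGT (a T-box core, as for Tbr1), TGTTTAC (forkhead, as for Foxp1 and Foxp2) and ATGCAAAT (an octamer, as for Pou3f1).
Rprm, chr2:54085553-54085802, minus strand: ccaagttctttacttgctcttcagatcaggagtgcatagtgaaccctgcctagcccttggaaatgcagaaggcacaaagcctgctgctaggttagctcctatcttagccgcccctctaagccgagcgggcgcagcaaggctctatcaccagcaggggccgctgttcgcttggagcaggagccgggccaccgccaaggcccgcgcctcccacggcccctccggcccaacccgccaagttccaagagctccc
Tle4, chr19:14598184-14598433, minus strand: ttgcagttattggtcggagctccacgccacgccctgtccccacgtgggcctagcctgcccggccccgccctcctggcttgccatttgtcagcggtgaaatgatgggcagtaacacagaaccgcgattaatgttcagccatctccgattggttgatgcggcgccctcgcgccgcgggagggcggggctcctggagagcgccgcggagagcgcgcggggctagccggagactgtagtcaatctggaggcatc
Syt6, chr3:103574995-103575230, plus strand: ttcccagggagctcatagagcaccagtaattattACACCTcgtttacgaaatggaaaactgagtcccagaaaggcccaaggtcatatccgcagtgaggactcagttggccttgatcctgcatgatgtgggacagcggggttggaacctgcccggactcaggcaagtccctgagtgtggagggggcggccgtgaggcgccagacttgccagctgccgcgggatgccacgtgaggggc
Neurod6, chr6:55681264-55681513, minus strand: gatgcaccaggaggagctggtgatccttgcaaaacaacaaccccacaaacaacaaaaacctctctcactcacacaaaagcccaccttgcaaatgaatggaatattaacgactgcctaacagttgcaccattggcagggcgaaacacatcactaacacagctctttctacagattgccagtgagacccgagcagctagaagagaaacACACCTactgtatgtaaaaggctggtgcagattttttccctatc
The T-box core was found once in Syt6 and once in Neurod6, in each case on the opposite strand (ACACCT), and no motif was found in Rprm or Tle4. No matches overlapped in these windows. The 4 sequences held 62.4, 65.2, 58.9 and 46% G and C, where the median of 32851 RefSeq windows was 52.4%.

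Of the 32 members, 25 had an entry in the RefSeq table, with 35 start sites in all. In the 250 bases upstream of these sites the E-box was found in 6 (17.1%), the T-box core in 4 (11.4%), the forkhead motif in 1 (2.86%) and the octamer in 0. Over all 32851 windows of the same length the shares were 14.4, 11.8, 3.17 and 1.6%. The members' shares were thus near those of all windows. A match is a run of letters and does not show binding.

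The third comparison was of knockdown libraries (morphine) with scramble saline libraries, which differ in both virus and drug. It uses the same knockdown libraries as the second comparison, so the values stand side by side and are not a second observation. No member passed edgeR or limma voom, and DESeq2 called 2, again Rprm and Syt6. At an unadjusted p under 0.05 stood 12 of 32 members (37.5%), 11 lower and 1 higher, against 9.35% of all genes tested, 4.37% lower and 4.97% higher. The median log2 fold change was -0.43 for layer 6 (8 of 9 below 0), -0.25 for layer 5 (6 of 8), -0.15 for pan-excitatory genes (7 of 8) and 0.07 for upper layers (2 of 7), beside -0.00187 for all genes, of which 50.4% lay below 0 and 49.6% above. Without knockdown replicate 2 the upper-layer median was -0.03, and without saline replicate 5 it was -0.00175. Leaving out saline replicate 5 also brought the 12 members down to 7.

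Rprm stood at -0.77 (SE 0.14, edgeR adjusted p = 0.138) on the log2 scale here, a fold of 0.586 (95% interval 0.477 to 0.72), and DESeq2 gave an adjusted p of 8.97e-05, with 0.401 the highest over the alternatives. Syt6 stood at -0.79 (SE 0.21, edgeR adjusted p = 0.339), and without knockdown replicate 5 edgeR called it at -1.02 (adjusted p = 0.0489; up to 0.709 over the alternatives). All 4 knockdown libraries lay below all saline libraries for both genes. Tle4 was at -0.35 (SE 0.10, edgeR adjusted p = 0.351) and Neurod2 at -0.24 (SE 0.07, edgeR adjusted p = 0.346), also without overlap. Nxph4 had the value farthest from 0 among the members, -1.05 (SE 0.37, edgeR adjusted p = 0.398), from a mean of 2.17 CPM with saline and 1.06 with the knockdown. Foxp2 was at -0.44 (SE 0.17, edgeR adjusted p = 0.433), and at -0.21 without saline replicate 4 and knockdown replicate 3.

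Among layer 5 markers, Crym was at -0.50 (SE 0.16, edgeR adjusted p = 0.378), Fezf2 at -0.39 (SE 0.12, edgeR adjusted p = 0.369), Bcl11b at -0.34 (SE 0.13, edgeR adjusted p = 0.455) and Pou3f1 at -0.45 (SE 0.20, edgeR adjusted p = 0.527). Of these only Bcl11b had knockdown libraries that all lay below the saline libraries, 63.9, 64.0, 45.7 and 66.0 against a lowest saline value of 66.5 CPM. Neurod6 was at -0.40 (SE 0.15, edgeR adjusted p = 0.429), with overlap. The 1 member on the higher side was Cux1, which had 50.5, 57.8, 48.1 and 47.0 CPM with saline and 53.4, 62.4, 59.9 and 57.3 with the knockdown. Cux1 stood at 0.20 (SE 0.09, edgeR adjusted p = 0.52), and saline replicate 3 lay within the knockdown range. The groups did not overlap for 5 members, Neurod2, Bcl11b, Tle4, Syt6 and Rprm, all lower, as for 4.34% of all genes tested, 2.16% with the knockdown lower and 2.18% with it higher. The 20 other members ran from -0.43 to 0.15.

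The libraries of a group did not share 1 pattern. For each library, the log2 CPM of a member was set against its mean over the 12 libraries, and the median of these deviations was taken in each class, as a description with no test. Layer 6 had medians of 0.0002, 0.02, 0.40 and 0.46 with saline, 0.19, 0.13, 0.29 and -0.15 with scramble and morphine, and -0.18, -0.42, -0.61 and 0.0023 with the knockdown. Knockdown replicates 2 and 3 were thus the lowest of all libraries, while knockdown replicate 5 lay near 0 and above scramble morphine replicate 5. Upper layers had 0.03, 0.19, -0.01 and -0.28 with saline, -0.02, -0.21, -0.16 and 0.08 with scramble and morphine, and -0.18, 0.46, 0.0017 and -0.03 with the knockdown, with knockdown replicate 2 the highest and saline replicate 5 the lowest. In saline replicate 5 the layer 6 median was the highest of the 12, and in knockdown replicate 2 it was the second lowest. Layer 5 had 0.17, 0.08, -0.07 and 0.12 with saline, -0.03, 0.13, 0.13 and 0.02 with scramble and morphine, and -0.08, -0.12, -0.26 and -0.05 with the knockdown, below 0 in all 4 knockdown libraries and in 2 of the other 8. Pan-excitatory genes had 0.04, 0.07, 0.03 and 0.08 with saline, -0.04, 0.02, 0.16 and 0.12 with scramble and morphine, and -0.13, 0.04, -0.04 and -0.20 with the knockdown.

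**Figure D4:**
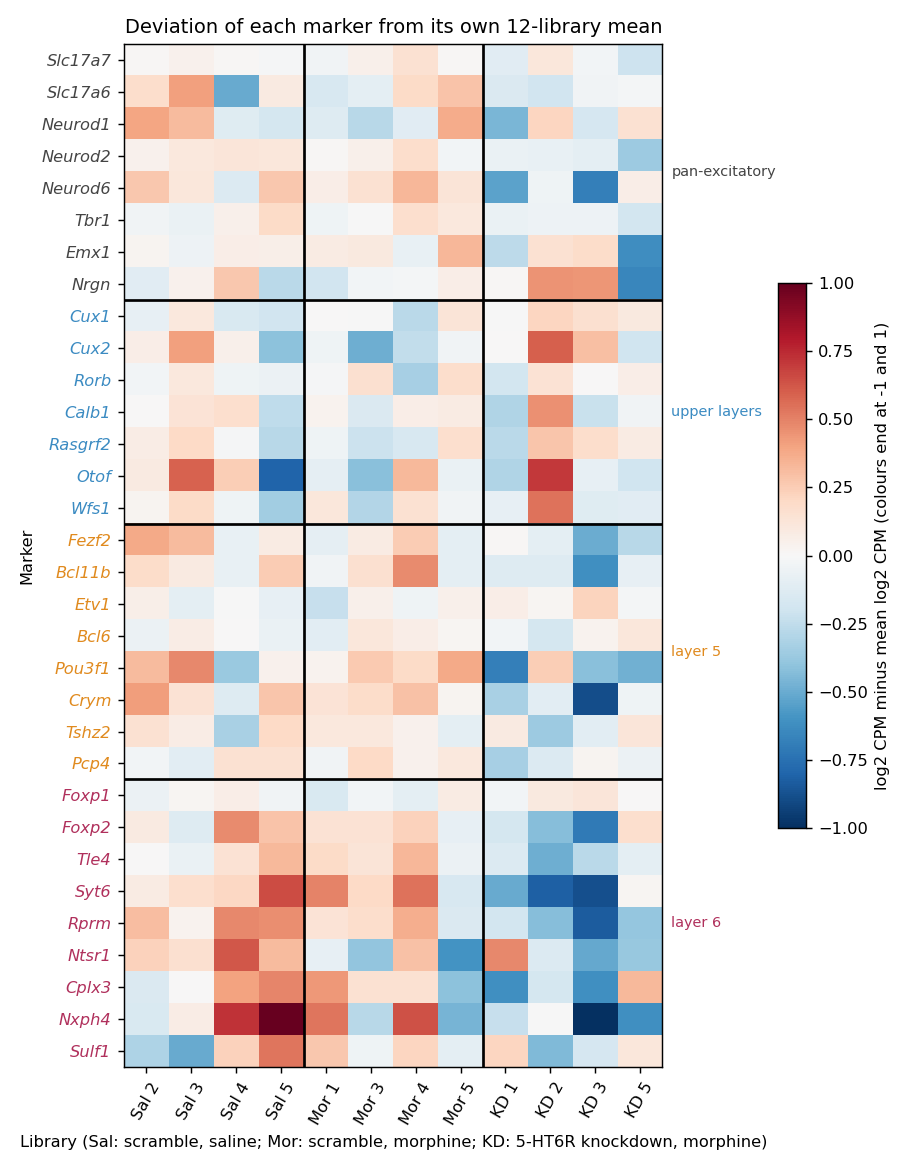
Deviation of each marker's log2 CPM from its own mean over the 12 libraries, with markers in rows by class and libraries in columns by group, and colours that end at -1 and 1. In knockdown replicates 2 and 3, 8 of 9 layer 6 rows are below their mean, with Foxp1 above it, upper-layer rows are red in knockdown replicate 2, and upper-layer rows are blue in saline replicate 5.

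**Figure D5:**
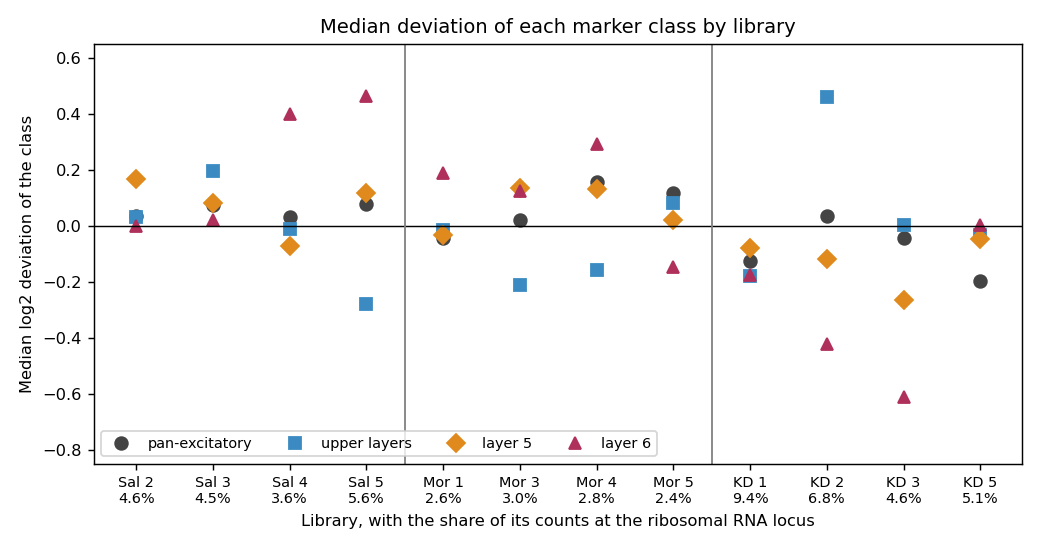
Median log2 deviation of each class in each library, with the percentage of counts from ribosomal RNA (CT010467.1) printed under the library. Layer 6 (triangles) and upper layers (squares) lie apart in opposite directions in saline replicate 5 and knockdown replicate 2.

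The ribosomal RNA share was set beside these medians. CT010467.1 took 9.38, 6.79, 4.57 and 5.12% of counts in knockdown replicates 1, 2, 3 and 5. Knockdown replicate 3, with the lowest layer 6 median, had a share within the saline range, and knockdown replicate 1, with the highest share, a layer 6 median of -0.18. In the second comparison the share did not overlap between the groups, at most 3.04% with scramble and morphine and at least 4.57% with the knockdown. A fit with the share as a covariate therefore cannot tell it apart from the group. With that share as a covariate, the layer 6 median of the second comparison was -0.48 and that of layer 5 -0.38, with 5 of 8 below 0. The median of upper layers was 0.27. With it 9 members had an unadjusted p under 0.05, and Pcp4 was not among them. Saline replicate 4 and knockdown replicate 3, which lay near each other, were also left out together: 9 members in the second comparison and 10 in the third then had such a p, and the layer 6 medians were -0.23 and -0.24. Without knockdown replicate 5 the layer 6 medians were -0.54 and -0.62.

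Marker lists of other cell types were read in the same libraries. In the first comparison, astrocyte markers lay above 0 in 10 of 10, median 0.17, and oligodendrocyte markers in 9 of 10, median 0.10. Markers of pericytes, smooth muscle and fibroblasts lay above 0 in 8 of 8, median 0.24. Endothelial markers lay below 0 in 6 of 6, median -0.12, and blood markers in 5 of 5, median -0.73. Of these genes, 1 blood marker had an unadjusted p under 0.05, lower (20% of its list, against 3.48% of all genes). In the third comparison, oligodendrocyte markers lay below 0 in 9 of 10, median -0.25, with saline sums of 1826 to 2394 CPM. At an unadjusted p under 0.05 stood 2 of these 10 (20%), both lower, against 9.35% of all genes. Markers of pericytes, smooth muscle and fibroblasts lay above 0 in 8 of 8, median 0.81, with saline sums of 181.4 to 233.4 CPM. Of these 8, 7 (87.5%) had such a p, all higher. Of 12 striatal markers, 5 (41.7%) had such a p, 4 lower and 1 higher. Of 6 oligodendrocyte precursor markers, 3 (50%) had it, 1 lower and 2 higher. Endothelial markers lay above 0 in 5 of 6, median 0.12, and 0 of them had such a p. In the second comparison all 10 oligodendrocyte markers lay below 0, median -0.32, 5 of them at an unadjusted p under 0.05 (50%, against 12% of all genes), and their summed level ran from 1942 to 2650.5 CPM with scramble and morphine and from 1263 to 2144 with the knockdown. Markers of pericytes, smooth muscle and fibroblasts lay above 0 in 8 of 8, median 0.42, with sums of 190.6 to 253.7 against 238.9 to 350.9 CPM. Of these 8, 4 (50%, against 12% of all genes) had an unadjusted p under 0.05, all higher. Endothelial markers lay above 0 in 6 of 6, median 0.26, with sums from 194.6 to 231.7 and from 219.3 to 302.2. Of these 6, 3 (50%) had such a p, all higher. Microglial markers lay below 0 in 7 of 8, median -0.23, with sums of 537.0 to 803.6 against 434.0 to 663.4 CPM. Of these 8, 1 (12.5%) had such a p, lower. Astrocyte markers had a median of -0.15 over 10 genes. Striatal projection neuron markers had a median of 0.01 over 12 of 14 tested, with 6 below 0 and 6 above. They ran from -0.99 to 0.38. Of these 12, 2 (16.7%, against 12% of all genes) had an unadjusted p under 0.05, both lower. Among the striatal markers on the lower side was Ppp1r1b, at 79.3 ± 7.35 against 50.0 ± 4.57 CPM. Interneuron markers had a median of 0.03 over 12 but ran down to -0.78. Of them 5 (41.7%, against 12% of all genes) had an unadjusted p under 0.05, 3 lower and 2 higher. The groups did not overlap for 3 of the 12, 2 lower and 1 higher with the knockdown. The same held for 5.85% of all genes, 3.26% lower and 2.59% higher. Genes of neurons in general, such as Snap25 and Rbfox3, had a median of -0.04 over 9, and their sum ran from 5264 to 5973 with scramble and morphine and from 4888 to 5888 CPM with the knockdown. None of the genes of these lists was at 0 in every library. The part of these differences in the values of the layer markers was not tested.

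A wider list of 51 further excitatory and layer genes was read in the same way. In the second comparison 34 of 51 lay below 0 (66.7%), around a median of -0.06 in log2 fold change, and 7 had an unadjusted p under 0.05 (13.7%, against 12% of all genes), 4 lower and 3 higher. The smallest p belonged to Gnb4, a G protein beta subunit, at -0.46 (SE 0.15, edgeR adjusted p = 0.312), and Unc5d, a netrin receptor, at 0.27 (SE 0.10, adjusted p = 0.325). Hs3st4, a heparan sulfate sulfotransferase of layer 6 neurons, stood at -0.50 (SE 0.17, adjusted p = 0.327), from 68.6 ± 11.7 to 48.5 ± 10.7 CPM (SD, n = 4). Adcyap1, which encodes the neuropeptide PACAP, stood at 0.61 (SE 0.22, adjusted p = 0.34). In the first comparison 22 of 51 lay below 0, with 2 at an unadjusted p under 0.05 (3.9%, against 3.48% of all genes), Igfbp4 at 0.20 and Unc5d at -0.21. In the third 30 of 51 lay below 0 (58.8%, against 50.4% of all genes) and 8 had such a p (15.7%, against 9.35%), 5 lower and 3 higher, with Kcnn2, a calcium-activated potassium channel, at 0.31, Nptx1, a neuronal pentraxin, at -0.26, Hs3st4 at -0.54 and Gnb4 at -0.43. None of the 51 was called by edgeR in any comparison.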

How the data were processed

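The deposited table holds raw gene counts for 12 libraries of mouse medial prefrontal cortex, with 55401 gene IDs, of which 55141 carry a symbol. Per the labels' protocols, RNA was selected with oligo(dT) and strands were marked with dUTP. Per the submitters' processing notes, cutadapt 1.9, HISAT2 2.0.4, StringTie 1.3.4d, DESeq2, edgeR and the build mm10 were used; their roles and the counting settings are not stated there. Poly(A) selection limits what the counts say of RNA without a tail.

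Groups came from the sample labels. Genes were filtered with filterByExpr (minimum count 10), which kept 21958, and tested with edgeR 4.0.16 (R 4.3.3): TMM scaling, 1 mean per group, all 12 libraries, quasi-likelihood test, Benjamini-Hochberg adjustment over all genes at 0.05. The residual degrees of freedom were 9. CPM were computed from the counts with TMM library sizes. Total counts per library, 41483220 to 65739423, set the counting precision. Alternatives used DESeq2 1.42.0, limma 3.58.1 (voom), other scalings, filters and gene sets, the groups compared alone, the replicate number as a block, the ribosomal RNA share as a covariate, and libraries left out. The fit was tested on simulated data.

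Fold changes were named for members at an unadjusted p under 0.05, or for the 3 smallest p; from the further list, at most 4 genes per comparison. The members, the lists and 2 of the alternatives were chosen with earlier results of these data known. Of the lists, 51 of 52 further genes and 12 of 13 interneuron genes matched a single gene ID. Marker lists were of interneurons, striatal projection neurons, thalamus and hippocampus, olfactory bulb, astrocytes, oligodendrocytes and their precursors, microglia, endothelium, pericytes with smooth muscle and fibroblasts, blood and general neurons. The value of 1 further marker is not reported here.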

Additional observations from a re-analysis of the deposited data

Results flagged for a closer look

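In 5 of 96 groups of 4 libraries, 1 library stood apart from the other 3 by more than Dixon's critical ratio for 4 values, which chance gives in about 1 in 20 groups (5%). All 5 were in the knockdown group. In knockdown replicate 5, Neurod2 stood lowest at 61.8 CPM, with the others between 74.5 and 76.1, and Tbr1 lowest at 139 CPM, with the others between 151 and 153. In knockdown replicate 2, Otof stood highest at 49.3 CPM, with the others between 24.5 and 28.5, and Wfs1 highest at 157 CPM, with the others between 99.0 and 102. In knockdown replicate 3, Bcl11b stood lowest at 45.7 CPM, with the others between 63.9 and 66.0.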

How the results depend on the processing

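The 24 named fold changes gave 552 values over 23 alternatives: 545 kept their direction and their side of the threshold, 6 passed it, and Pcp4 in knockdown against scramble with morphine turned to 0.00222 with the ribosomal RNA share as a covariate. Genes called for morphine against saline (0) became 4 with DESeq2 and 1 with the compared groups alone. For knockdown against scramble with morphine (0), they became 164 with DESeq2, 2 with no filter and 5 without saline replicate 4 and knockdown replicate 3 together, and ran from 0 to 375 with 1 library left out, 375 without knockdown replicate 5. For knockdown against scramble saline (3), they became 147 with DESeq2, 5 with no filter, 5 with the compared groups alone, and 0 with library totals, limma voom, the ribosomal RNA covariate or both libraries left out, and ran from 0 to 55 with 1 left out, 55 without knockdown replicate 5. Members called became 2 with DESeq2 in both knockdown comparisons, and 0 to 1 with 1 library left out. Members at an unadjusted p under 0.05 became 0 for morphine against saline with the ribosomal RNA covariate and 0 to 1 with 1 library left out; in the knockdown comparisons they ran from 8 to 12 and from 7 to 13 with 1 library left out, and were 13 and 14 with library totals. Values that moved by over 1.5 times were, with the ribosomal RNA covariate, Ntsr1 (-0.22) and Rprm (-0.02) for morphine against saline and Rprm (-0.93), Crym (-0.72), Neurod2 (-0.31) and Bcl11b (-0.66) for knockdown against scramble with morphine. For morphine against saline, Rprm was -0.11 without scramble morphine replicate 5 and Cux2 -0.11 without saline replicate 3. For knockdown against scramble with morphine, Bcl11b was -0.24 without scramble morphine replicate 4 and Crym -0.31 without saline replicate 4 and knockdown replicate 3. For knockdown against scramble saline, Foxp2 was -0.21 without that pair and Pou3f1 -0.68 without knockdown replicate 2. The ribosomal RNA share cannot be told apart from the group for morphine against saline or for knockdown against scramble with morphine. The cause of these shifts was not tested.

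Same-numbered libraries correlated between -0.0194 and 0.127 in 9 pairs, 2 above 0.1. Since not every pair was above 0.1 and the labels name no shared source, the numbers were not taken to pair the libraries. Libraries correlated best with their own number in 11 of 18 cases, a hint of pairing from the data and not from the design. Each case took the best of the 4 libraries of another group, so chance gives 1 in 4. The 9 pairs were counted from both sides, so the 18 cases are not independent. With the replicate block, 1, 2 and 0 genes were called in the 3 comparisons, 1, 8 and 11 members had an unadjusted p under 0.05, and Cux2 for morphine against saline was -0.15.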
